A study of Mus musculus with 24 samples.

Results

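The contractile genes of smooth muscle were described in ventral prostate from 6 inbred mouse strains: FVB, 129X1, SWR, AKR, C57BL/6 and BALB/c. Each strain was represented by 4 arrays from biological replicates, all of wild type males of 8 weeks on a standard diet and without treatment. The members are 10 genes (Myh11, Mylk, Actg2, Acta2, Tagln, Cnn1, Des, Smtn, Myl9 and Tpm2), and every probe set annotated to them was taken. They are covered by 18 of the 22690 probe sets of the array, a probe set being a group of short probes for the same transcript. Of these, 16 passed the filter on faint signals and were among the 15775 probe sets tested. The remaining pair, one each for Acta2 and Tpm2, is described with the probe sets at the end. The labels do not say whether a replicate is 1 mouse or a pool. The tissue is named only by its lobe, with no cell type isolated.

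Smooth muscle cells surround the prostate ducts and the vessels, and their contraction empties the glands. Contraction starts when calcium and calmodulin switch on myosin light chain kinase, which phosphorylates the regulatory light chain and lets smooth muscle myosin pull on actin filaments. Most genes of this apparatus are switched on together by serum response factor and its partner myocardin, which act at a short promoter element called the CArG box. In the prostate these genes are textbook markers of the stroma, while the secretions come from luminal epithelium. Signal was measured on whole tissue, so that fewer muscle cells and less RNA per muscle cell cannot be told apart in any difference described here.

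Values are log2 of the rescaled intensity plus 16, given as mean ± SD over the 4 arrays of a strain. Folds are antilogs of log2 differences on that scale, so they understate differences of faint probe sets. Arrays give no read depth; precision is set by the 4 arrays per strain. Each strain was compared with the mean of the other 5 strains, and these comparisons share arrays: a strain with low values moves the reference of every other strain. Calls are two-sided limma tests with Benjamini-Hochberg adjustment over all 15775 probe sets at 0.05.

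The arrays carried luminal epithelium signal: the luminal genes Pbsn (probasin), Krt8 and Hoxb13 had strain means of at least 11.11, 9.74 and 9.65. Pbsn varied widely in AKR (11.59 ± 1.19). That the lobe is ventral is known from the labels only. Seminal vesicle markers were faint, with 2 of 7 tested and a highest single intensity of 61.6. Of the 24 arrays 3 stood apart in 16 tested skeletal muscle genes (of 21 listed). The mean of these genes, each centred on its 24-array mean, was 1.47 in 129X1 replicate 4, 0.985 in SWR replicate 4 and 0.613 in C57BL/6 replicate 4, against −0.537 to 0.112 in the other 21 arrays. The summed intensity of the list was 3320 at most in 129X1 and 2515 at most in SWR, against 550 to 869 in BALB/c. The F test and strain counts of the members are given with and without these arrays. Pair and neighbour calls, correlations and the other gene lists are not given without the 3 together.

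Contractile gene signal separated the strains. In the F test among all 6 strains, 13 of the 16 member probe sets differed, covering all 10 genes, where 36.4% of all tested probe sets did. The median range between strain means was 1.15 on the log2 scale for the members and 0.50 for all tested probe sets. The share of variance lying between strains had a median of 79.7% over member probe sets and 41.4% over all tested. Without the 3 arrays with skeletal muscle signal, 13 member probe sets still passed.

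BALB/c had the lowest contractile gene signal. It held the lowest strain mean for 9 of the 10 genes at their brightest probe sets, the exception being Des. Of the 16 member probe sets 12 were lower in BALB/c than in the other strains and none was higher, where 10.6% of all tested probe sets were lower and 8.3% higher. These 12 covered every member except Des. None was higher at an unadjusted p under 0.05 either. The median difference of the members was −0.83, against −0.01 for all tested probe sets. The count was again 12 without the 3 arrays with skeletal muscle signal.

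**Figure D1:**
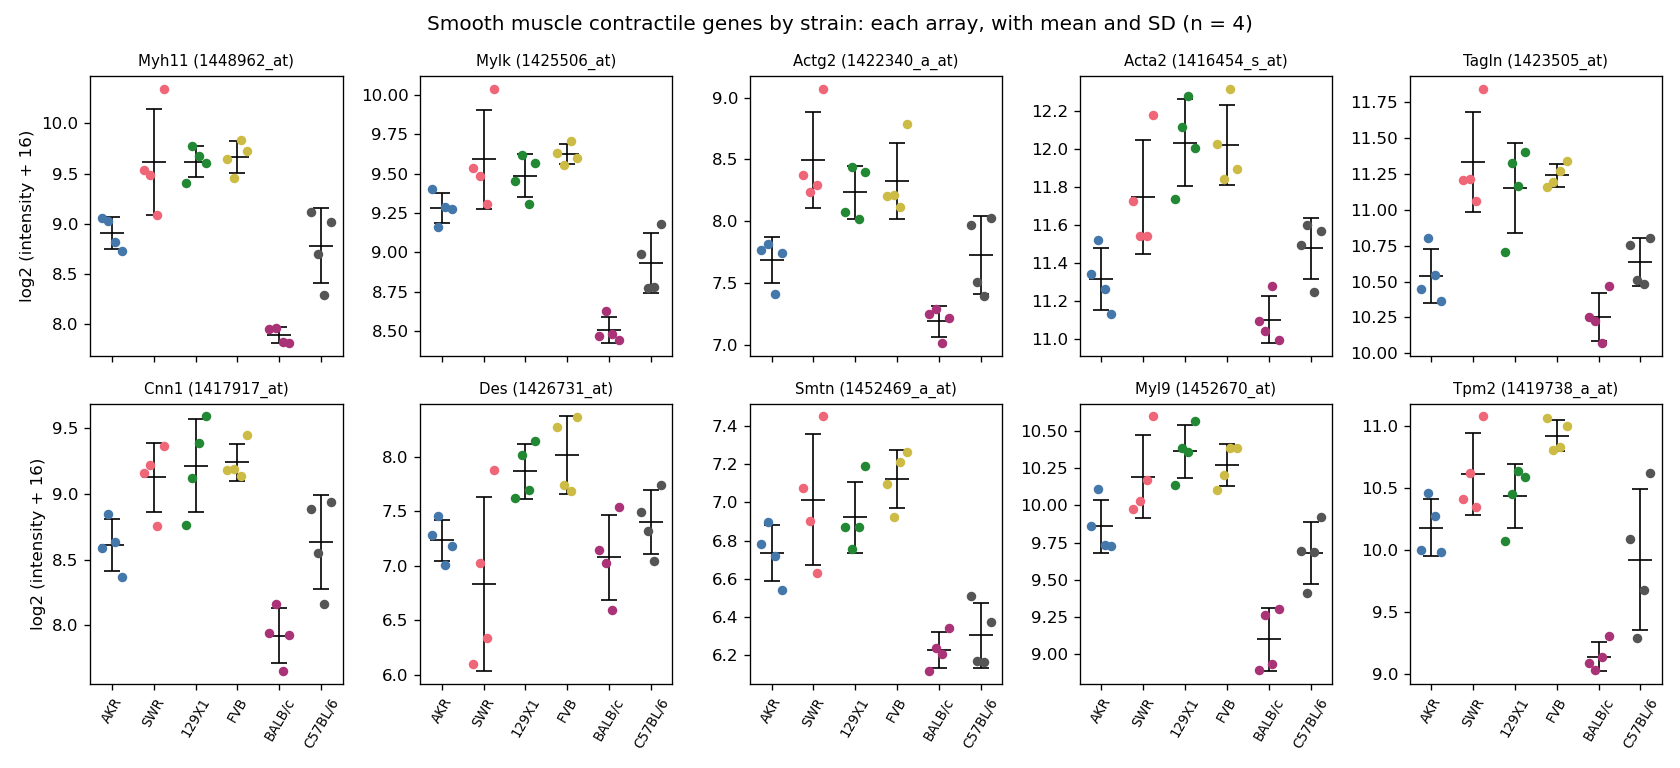
Log2 (intensity + 16) of the brightest probe set of each of the 10 genes, 1 point per array and 1 colour per strain, with the mean and SD of the 4 arrays as a bar. BALB/c has the lowest mean in 9 of 10 panels, and the highest SWR point is replicate 4 in every panel.

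Myh11, the heavy chain of smooth muscle myosin and the motor of contraction, had the largest fold among the members in BALB/c. Its 4 BALB/c arrays lay at 7.96, 7.96, 7.82 and 7.82. The C57BL/6 arrays lay at 9.12, 8.70, 8.30 and 9.02 and the AKR arrays at 9.06, 9.02, 8.82 and 8.73. Neither strain overlapped BALB/c, while AKR and C57BL/6 overlapped each other. The FVB arrays lay at 9.64, 9.46, 9.84 and 9.73, those of 129X1 at 9.41, 9.78, 9.67 and 9.61, and those of SWR at 9.53, 9.49, 9.09 and 10.35. FVB, 129X1 and SWR overlapped each other and, in all but 1 SWR array, lay above AKR and C57BL/6. In BALB/c Myh11 was 2.69-fold lower than in the other 5 strains (log2 difference −1.43, SE 0.15, limma adjusted p = 3.6e-07). Against FVB the difference was 3.43-fold (adjusted p = 7.0e-07) and against C57BL/6, the next lowest strain, 1.86-fold (adjusted p = 0.0027).

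The light chain and its kinase act on the same motor. Mylk encodes the kinase that starts contraction, and at its brightest probe set the BALB/c arrays lay at 8.47, 8.63, 8.48 and 8.45. The C57BL/6 arrays lay at 8.99, 8.78, 8.78 and 9.18, and the other 16 arrays between 9.16 and 10.04. No array of another strain reached down to BALB/c. Mylk was 1.84-fold lower there than in the other 5 strains (log2 difference −0.88, SE 0.10, adjusted p = 1.1e-06). Myl9, the regulatory light chain that the kinase phosphorylates, lay at 8.90, 9.26, 8.94 and 9.30 in BALB/c and between 9.41 and 10.60 in the other 20 arrays. It was 1.96-fold lower in BALB/c (log2 difference −0.97, SE 0.11, adjusted p = 1.6e-06).

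Both smooth muscle actins were also lower in BALB/c. Acta2, the alpha actin of smooth muscle, lay between 10.99 and 11.28 in BALB/c and between 11.13 and 12.32 in the others, so that its BALB/c arrays overlapped 3 arrays of AKR and C57BL/6. It was 1.53-fold lower in BALB/c (log2 difference −0.62, SE 0.11, adjusted p = 0.00049). Actg2, the actin of visceral smooth muscle, lay at 7.25, 7.29, 7.01 and 7.21 in BALB/c, below all 20 other arrays (lowest 7.40). It was 1.87-fold lower (log2 difference −0.90, SE 0.14, adjusted p = 9.0e-05). Actins are close to identical in sequence, and the sharing of signal between their probe sets was not tested.

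Among the actin-binding members, Tpm2, a tropomyosin that lies along the thin filament, had the largest fold in BALB/c. At its brightest probe set it lay at 9.09, 9.03, 9.14 and 9.30 in BALB/c and between 10.80 and 11.06 in FVB. C57BL/6 lay at 10.09, 9.29, 9.68 and 10.62, and AKR, SWR and 129X1 at 9.99 to 11.08, the highest being SWR replicate 4. Only 1 array outside BALB/c, C57BL/6 replicate 2, fell within the BALB/c range. Tpm2 was 2.42-fold lower in BALB/c than in the other strains (log2 difference −1.28, SE 0.16, adjusted p = 5.2e-06) and 3.45-fold lower than in FVB (adjusted p = 2.0e-06).

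Cnn1, which encodes calponin, an actin-binding inhibitor of the myosin ATPase, lay at 7.94, 8.16, 7.65 and 7.92 in BALB/c, and no array of another strain lay below the highest of these. It was 2.06-fold lower (log2 difference −1.04, SE 0.14, adjusted p = 1.2e-05). Tagln, which encodes the actin-bundling protein transgelin, was 1.65-fold lower at 10.25 ± 0.17 against 10.98 (adjusted p = 0.00022), with 18 of the other 20 arrays above every BALB/c array. Smtn, which encodes the actin-associated protein smoothelin, was 1.51-fold lower at 6.23 ± 0.09 against 6.82 (adjusted p = 0.00052), with arrays of C57BL/6 among those of BALB/c. All 4 BALB/c arrays lay below the other 20 at 5 of the 16 member probe sets (Myh11, Mylk, Actg2, Cnn1 and Myl9), where 0.856% of all tested probe sets did.

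Des followed this pattern only in part. It encodes desmin, the intermediate filament of muscle cells, and at its brightest probe set it was 7.08 ± 0.39 in BALB/c against 7.47 for the other 5 strains, a difference that was not called (adjusted p = 0.21). In pairs, Des was lower in BALB/c than in FVB (1.92-fold, limma adjusted p = 0.029). It was not called against 129X1 (1.73-fold lower, adjusted p = 0.051), AKR, C57BL/6 or SWR. Its lowest mean was in SWR, where the arrays lay at 6.10, 7.02, 6.33 and 7.88. SWR replicates 1 and 3 were the lowest of all 24 arrays, while replicate 4 overlapped the arrays of FVB (7.68 to 8.37) and 129X1 (7.62 to 8.14). Des was 1.61-fold lower in SWR than in the other strains (log2 difference −0.68, SE 0.22, adjusted p = 0.043), and this call was lost under 14 of 35 alternatives. Without SWR replicate 4 the difference was −1.03 (adjusted p = 0.0013). Among the 10 genes Des also had the lowest median correlation with the other 9 over the 24 arrays, at 0.48, where the median over all 45 gene pairs was 0.87. After the strain means were removed, the median of Des was 0.629 and that of all pairs 0.634, so within strains this probe set varied with the other members. SWR replicate 4 was kept in for these correlations. The fainter Des probe set did not vary with them, at −0.32 (Smtn) to 0.15 (Acta2) with their brightest probe sets.

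FVB had the highest contractile gene signal, with the highest mean for 6 of the 10 genes (Myh11, Mylk, Cnn1, Des, Smtn and Tpm2). Of the 16 member probe sets 11 were higher in FVB, covering all genes but Actg2, and none was lower at an adjusted or an unadjusted p under 0.05. Among all tested probe sets 3.45% were higher and 3.65% lower. The largest difference was that of Tpm2, at 10.92 ± 0.13 against 10.06 (1.82-fold, adjusted p = 0.0011). The count was 5 without FVB replicate 4, 7 without FVB replicate 3 and 12 without the 3 arrays with skeletal muscle signal.

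In 129X1 the calls were fewer, with 5 of 16 member probe sets higher (Myh11, Acta2, Cnn1, Myl9 and a faint one of Tpm2) and none lower at either p, against 6.38% higher and 5.27% lower among all tested. At an unadjusted p under 0.05, 11 were higher. The median member difference was 0.35, against 0.008 for all tested probe sets. Acta2 had its highest mean there, 12.03 ± 0.23 against 11.53 for the other strains (1.42-fold, adjusted p = 0.0045), with arrays between 11.74 and 12.28. Myl9 was also highest there, at 10.36 ± 0.18 against 9.82 (1.46-fold, adjusted p = 0.0021). The number called was 3 without 129X1 replicate 4, the array with the strongest skeletal muscle signal, and 8 without SWR replicate 4. Without all 3 arrays with that signal it was 4.

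SWR had 7 member probe sets higher (of Myh11, Mylk, Actg2, Tagln, Smtn and Tpm2) and 1 lower (Des), against 5.52% higher and 5.04% lower among all tested. Much of this rested on a single array. SWR replicate 4 was the highest of the 4 SWR arrays for all 10 genes, with Myh11 at 10.35 against 9.09 to 9.53 and Tagln at 11.84 against 11.06 to 11.21. It also had the skeletal muscle score of 0.985, against −0.324 to −0.0708 in the other SWR arrays. Without it 2 probe sets were higher, those of Actg2 (log2 difference 0.47, adjusted p = 0.0405) and Tagln (0.40, adjusted p = 0.0446), and Des was lower. With all arrays these differences were 0.66 for Actg2 and 0.57 for Tagln.

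AKR and C57BL/6 lay between these strains and BALB/c. In AKR 1 of 16 was lower, Acta2 at 11.31 ± 0.16 against 11.68 (adjusted p = 0.046), against 5.12% lower and 4.67% higher among all tested, and this call was lost under 23 of 35 alternatives. None was higher in AKR, also at an unadjusted p under 0.05, where 3 were lower. In C57BL/6 3 of 16 were lower, 2 of Mylk and 1 of Smtn, against 5.45% lower and 5.65% higher among all tested, and none was higher at either p. At an unadjusted p under 0.05, 8 were lower. The median member difference in C57BL/6 was −0.27, against −0.01 for all tested probe sets. Smtn lay at 6.51, 6.17, 6.16 and 6.38 in C57BL/6, which was 1.41-fold lower (log2 difference −0.50, adjusted p = 0.0037), and this call held under all 35 alternatives. Without C57BL/6 replicate 4, whose skeletal muscle score was 0.613 and which had the highest value of its strain in 7 of 10 genes, 5 member probe sets were lower.

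**Figure D2:**
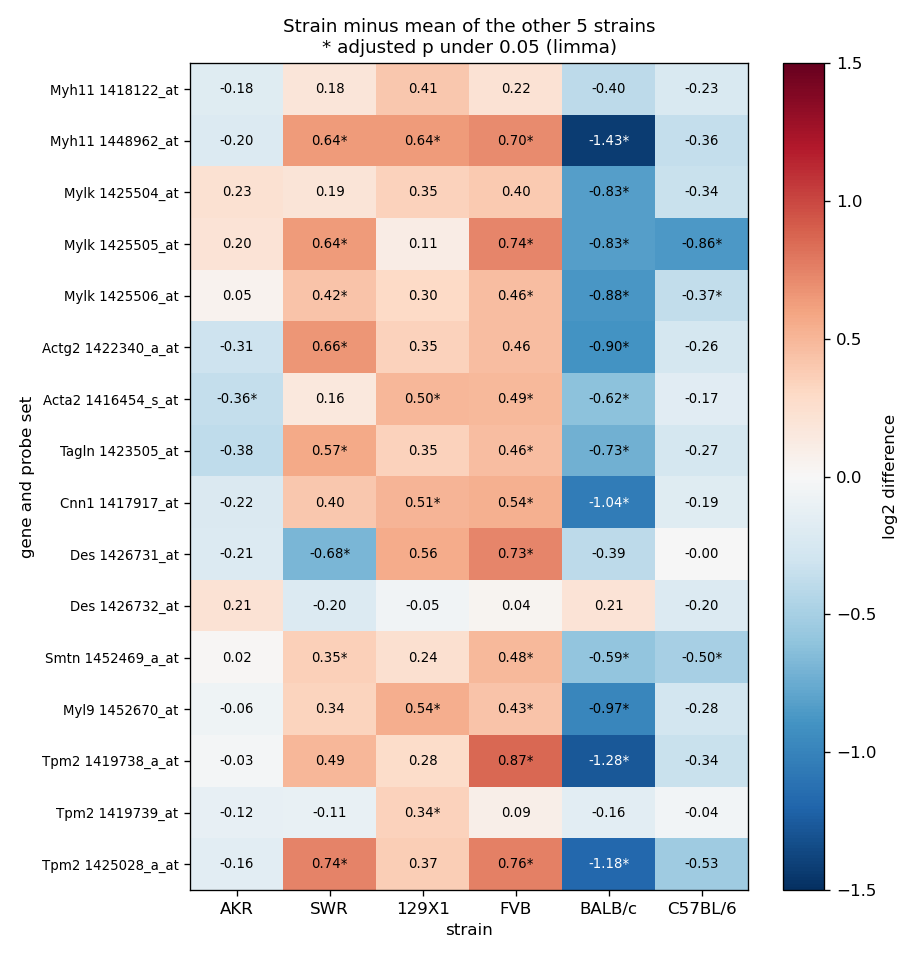
Log2 difference of each strain from the mean of the other 5 (columns) for the 16 tested member probe sets (rows), with an asterisk where the limma adjusted p was under 0.05. BALB/c has 12 negative calls and FVB 11 positive calls, and SWR is the only strain with calls in both directions.

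Over the 15 pairs of strains, 100 of the 240 tests of a member probe set were called, against 11.4% for all tested probe sets. The most were called in the pairs of BALB/c with FVB, 129X1 and SWR. FVB against BALB/c and 129X1 against BALB/c had 13 of 16 each, where 11.6% and 17.6% of all tested were called. SWR against BALB/c had 12 (19.8% of all tested) and AKR against BALB/c 9 (12.6%). In each of these pairs every called member was lower in BALB/c. BALB/c against C57BL/6 had 5 (14.6% of all tested), all lower in BALB/c, at probe sets of Myh11, Mylk, Cnn1, Myl9 and Tpm2.

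C57BL/6 was the lower strain against FVB at 11 member probe sets (10.8% of all tested), against SWR at 9 (7.97%) and against 129X1 at 9 (11.5%). AKR was lower than FVB at 7 (7.42% of all tested), than 129X1 at 5 (11.4%) and than SWR at 4 (10%). AKR was higher than C57BL/6 at 1, a probe set of Mylk (11.5% of all tested). Among the 3 strains with high signal the calls were few. SWR was lower than 129X1 and than FVB at 1 probe set each, that of Des, where 9.2% and 6.87% of all tested were called. None was called by limma for 129X1 against FVB (2 at an unadjusted p under 0.05), where 8.49% of all tested were, and the largest difference was −0.52, at Mylk (adjusted p = 0.093).

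When the strains were ordered by mean for each member probe set, 8 of 80 differences between neighbours in the order were called, where 1.78% were over all tested probe sets. BALB/c was the lower strain in 6 of them, where such steps made up 0.396% over all tested, and the others were SWR above AKR for Myh11 and 129X1 above C57BL/6 for Tagln. A p that misses the threshold does not show equal levels, so the order among the remaining neighbours is a description.

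The members also varied together among arrays of the same strain. After the strain means were removed, the median correlation between 2 of the 10 genes was 0.63 (0.32 to 0.81 over 45 pairs, 24 arrays). These values are a description: the genes share arrays, scaling and tissue pieces, and the arrays with skeletal muscle signal were kept in. In AKR, replicate 2 was highest in 8 of 10 genes and replicate 4 lowest in 7. In C57BL/6 replicate 3 was lowest in 7 and in 129X1 replicate 1 was lowest in 7. The mean of the 10 genes, each centred on its 24-array mean, spanned −0.858 to −0.641 in BALB/c and −0.483 to 0.808 in the other 20 arrays.

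Markers of other cells moved with the strains too, and their part in the results was looked at only as a covariate. For luminal epithelium, 8 of 10 listed genes were tested and 4 were higher in BALB/c and 1 lower, against 8.3% and 10.6% of all tested. Krt18, a keratin of luminal cells, was 11.40 ± 0.04 in BALB/c (1.55-fold higher, adjusted p = 2.5e-07), Epcam, an epithelial adhesion molecule, 11.12 ± 0.04 (1.44-fold, adjusted p = 6.7e-05) and the secreted protein Pbsn 12.92 ± 0.20 (2.61-fold, adjusted p = 0.0011). The homeobox gene Hoxb13 was 1.23-fold lower. Krt19 was higher in BALB/c and Cdh1 and Cldn3 lower, none of them called. The summed intensity of the 8 genes, which is weighted to bright ones such as Pbsn, was 15490 to 18490 in BALB/c. It was 8865 to 13650 in the other strains, with no overlap. The luminal score, the mean of the 8 centred genes, barely separated them, at 0.134 to 0.335 against −0.241 to 0.126. With the luminal score as a covariate, 5 of the 12 member calls in BALB/c remained (Myh11, 2 of Mylk, Myl9 and 1 of Tpm2), and FVB had 12. The 7 that lost the call had log2 differences of −0.84 to −0.40 with the covariate and −1.18 to −0.59 without it, so all were still negative. The score was higher on every BALB/c array than on any other, so a call can be lost through lower precision alone. Acta2 went from −0.62 to −0.57 (limma adjusted p from 0.00049 to 0.12) and Actg2 from −0.90 to −0.58 (from 9.0e-05 to 0.18). These fits cannot say what part luminal content has.

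Fibroblast and matrix genes (14 of 15 tested) were lower in AKR for 6 genes and in BALB/c for 2, and none was higher in either. Among all tested probe sets 5.12% were lower in AKR and 10.6% in BALB/c. The summed intensity of the fibroblast and matrix genes was 3377 to 4139 in AKR, 3844 to 5416 in BALB/c, 4047 to 5316 in C57BL/6 and 4983 to 7082 in the other 3 strains. With their score as a covariate the member calls in BALB/c were 12, while those in FVB went from 11 to 1 and those in 129X1 from 5 to 1. The 10 that lost the call in FVB had log2 differences of 0.15 to 0.55 with the covariate and 0.43 to 0.87 without it, and the 4 in 129X1 had 0.18 to 0.41 and 0.50 to 0.64. The score differs between strains itself, so a covariate takes out part of any strain difference it shares. Of the adipocyte genes (6 of 10 tested) 5 were higher in BALB/c and 4 in FVB, the strains with the lowest and the highest member signal, with summed intensities of 669 to 4188 and 430.1 to 4564. Of all tested probe sets 8.3% and 3.45% were higher there. In C57BL/6 4 adipocyte genes were lower and in AKR 1 (5.45% and 5.12% of all tested). Basal epithelium genes (8 of 8 tested) were lower in BALB/c for 6 and in C57BL/6 for 5, against 10.6% and 5.45% of all tested. They were higher in SWR for 5, in 129X1 for 3 and in AKR for 1, against 5.52%, 6.38% and 4.67%. Pericyte genes had 4 of 7 tested and none called in BALB/c at an adjusted p under 0.05, where 8.3% of all tested were higher and 10.6% lower. With so few genes, the absence of calls does not show that pericyte signal was equal. Their score ran from −0.0621 to 0.0572 in BALB/c and from −0.357 to 0.381 in the other 20 arrays.

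**Figure D3:**
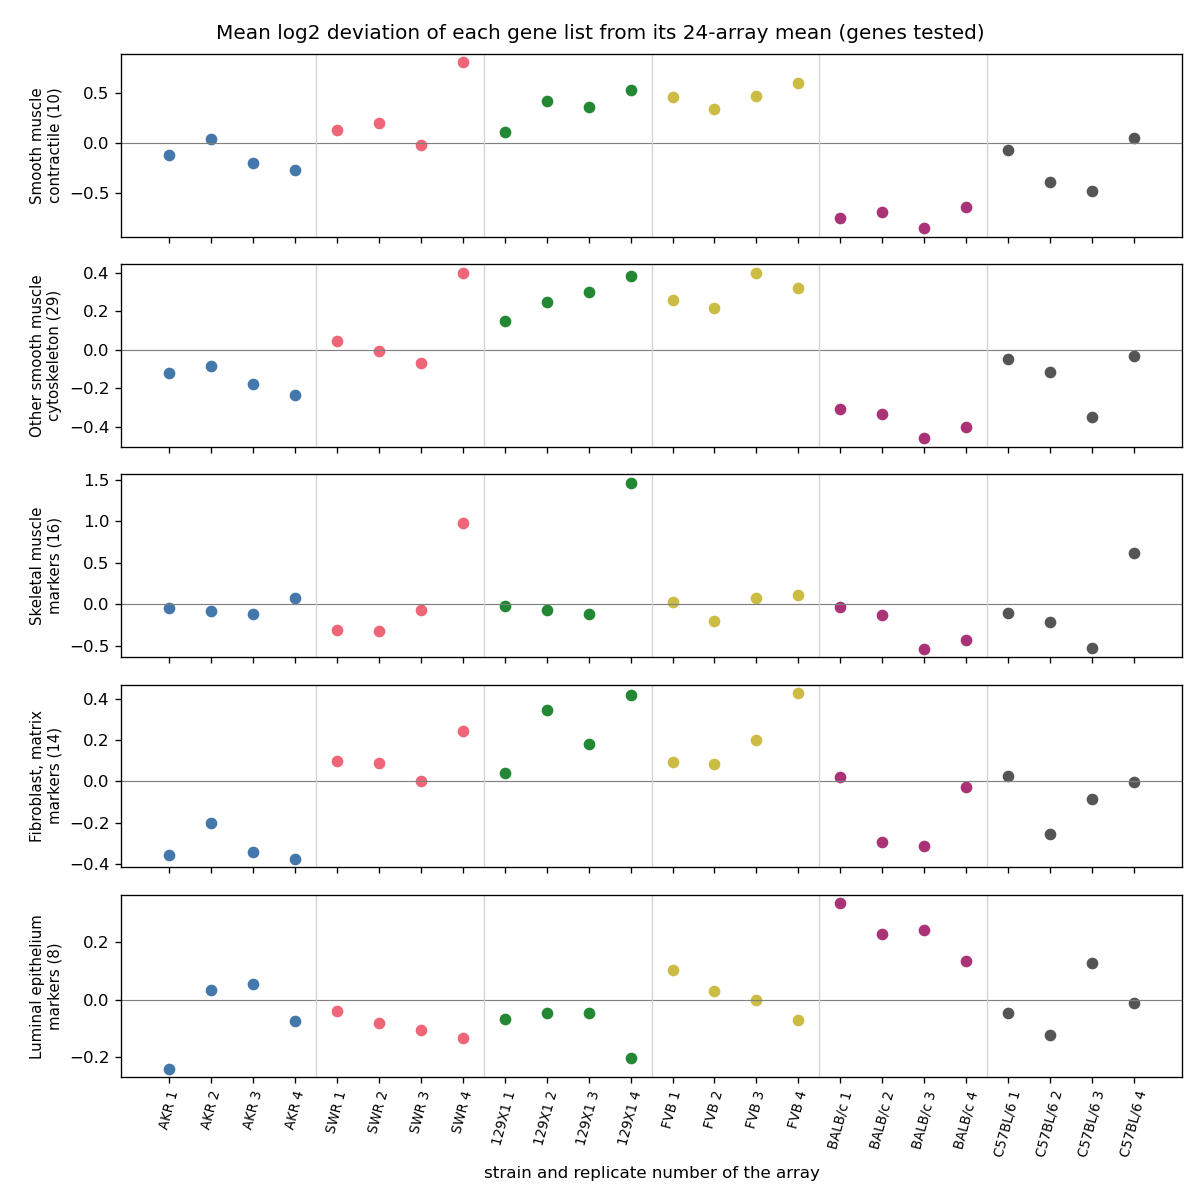
Mean log2 deviation of 5 gene lists from their own 24-array mean on each array, with arrays in order of strain and replicate number and the number of genes tested in brackets. BALB/c lies between −0.858 and −0.641 in the contractile panel and between 0.134 and 0.335 in the luminal panel, and SWR, 129X1 and C57BL/6 replicates 4 stand out in the skeletal muscle panel.

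Of the skeletal muscle genes 6 of 16 passed the F test (37.5%, against 36.4% of all tested). In BALB/c 4 were lower and none higher, the same direction as the members, and in AKR, SWR, 129X1 and FVB 1 each was higher. Of all tested probe sets 10.6% were lower in BALB/c, and 3.45% (FVB) to 6.38% (129X1) were higher in the strains with 1 each. One of the 6, Acta1, the actin of skeletal muscle, had strain means from 6.55 ± 0.24 in BALB/c to 9.07 ± 0.26 in FVB. It was 3.81-fold lower in BALB/c (adjusted p = 6.7e-08). Ckm, the creatine kinase of skeletal muscle, had means from 6.34 to 7.19 and did not pass (adjusted p = 0.65).

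The other genes of the smooth muscle cytoskeleton had many calls. Of 37 listed, 29 were tested and 20 (69%) passed the F test, against 36.4% of all tested probe sets. In BALB/c 12 were lower and none higher, in 129X1 13 were higher and 1 lower, and in FVB 9 were higher and none lower. Of all tested probe sets 10.6% were lower in BALB/c, 6.38% higher in 129X1 and 3.45% higher in FVB. The named ones were those with the widest ranges. Itga8, an integrin of smooth muscle, was faint (intensities from 1.857 to 95.35) and ranged from 4.59 in BALB/c to 6.34 in 129X1. Tpm1, another tropomyosin, was 8.16 ± 0.14 in BALB/c, 2.15-fold lower than in the other strains (adjusted p = 2.7e-08). Flna, an actin crosslinker, was 7.81 ± 0.12 in BALB/c, 2.13-fold lower (adjusted p = 1.2e-06). Pdlim7 and Tns1, which link actin to adhesions, were at 5.41 and 8.20 in BALB/c and at 6.76 and 9.55 in FVB. These Tns1 values are of its brightest probe set, whereas the correlations of Tns1 given below are of a fainter one. Fhl1, a LIM protein of muscle, was lowest in AKR at 8.16 and highest in FVB at 9.61.

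Regulators of the programme were near the background. Of 21 listed, 15 were tested and 5 (33.3%) passed the F test. Csrp1, a LIM protein of smooth muscle, ranged the most, from 9.24 ± 0.11 in BALB/c (1.96-fold lower, adjusted p = 6.2e-07) to 10.55 ± 0.16 in FVB. Myocd, which encodes myocardin, was faint, with 5.51 ± 0.28 in BALB/c (1.32-fold lower, adjusted p = 0.039), 5.50 ± 0.14 in C57BL/6 (1.33-fold lower, adjusted p = 0.048) and 5.84 to 6.11 in the other strains. Srf, serum response factor itself, ranged only from 6.20 in BALB/c to 6.64 in 129X1 (F test adjusted p = 0.047). Csrp2, a relative of Csrp1, and Klf4, a factor that represses the muscle programme, had their lowest means in AKR, at 5.95 and 6.17.

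Signalling to the contractile apparatus was close to the background as well, with 7 of 20 tested genes (35%) passing the F test, of 36 listed. Cald1, which encodes caldesmon, an actin-binding brake on contraction, ranged from 8.33 in BALB/c to 9.48 in FVB. Ppp1r14a, an inhibitor of myosin phosphatase, was faint (intensities from 2.159 to 61.85) and ranged from 4.99 in C57BL/6 to 6.13 in SWR. P2rx1, a receptor for ATP that triggers contraction, was 6.37 in BALB/c and 7.17 in 129X1. Ppp1cb, the catalytic subunit of myosin phosphatase, was highest in C57BL/6 at 9.54. Camk2g, a calmodulin-dependent kinase, had its highest mean in FVB (8.06). Mrvi1, a target of the relaxing kinase Prkg1, was faint (intensities from 4.283 to 44.04) and had its lowest mean in SWR (4.90).

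In BALB/c the calls among non-muscle relatives of the members were near the background. Of 17 listed, 15 were tested and 8 (53.3%) passed the F test, against 36.4% of all tested probe sets. In BALB/c 1 was higher and 1 lower, where 8.3% and 10.6% of all tested were. In C57BL/6 4 were lower and none higher (5.45% and 5.65% of all tested). In 129X1 3 and in FVB 2 were higher and none lower, where 6.38% and 3.45% of all tested were higher. Cnn3, the calponin of non-muscle cells, had its highest mean in BALB/c at 9.15 and its lowest in C57BL/6 at 7.87, whereas Cnn1 was lowest in BALB/c. Cnn2 ranged from 6.57 in BALB/c to 7.65 in 129X1, Pfn1, an actin monomer binding protein, from 9.04 in C57BL/6 to 9.90 in 129X1, and the tropomyosin Tpm4 from 7.33 in C57BL/6 to 8.00 in FVB. The actin crosslinker Actn4 was lowest in SWR (9.56) and the light chain Myl6 was highest there (7.38).

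**Figure D4:**
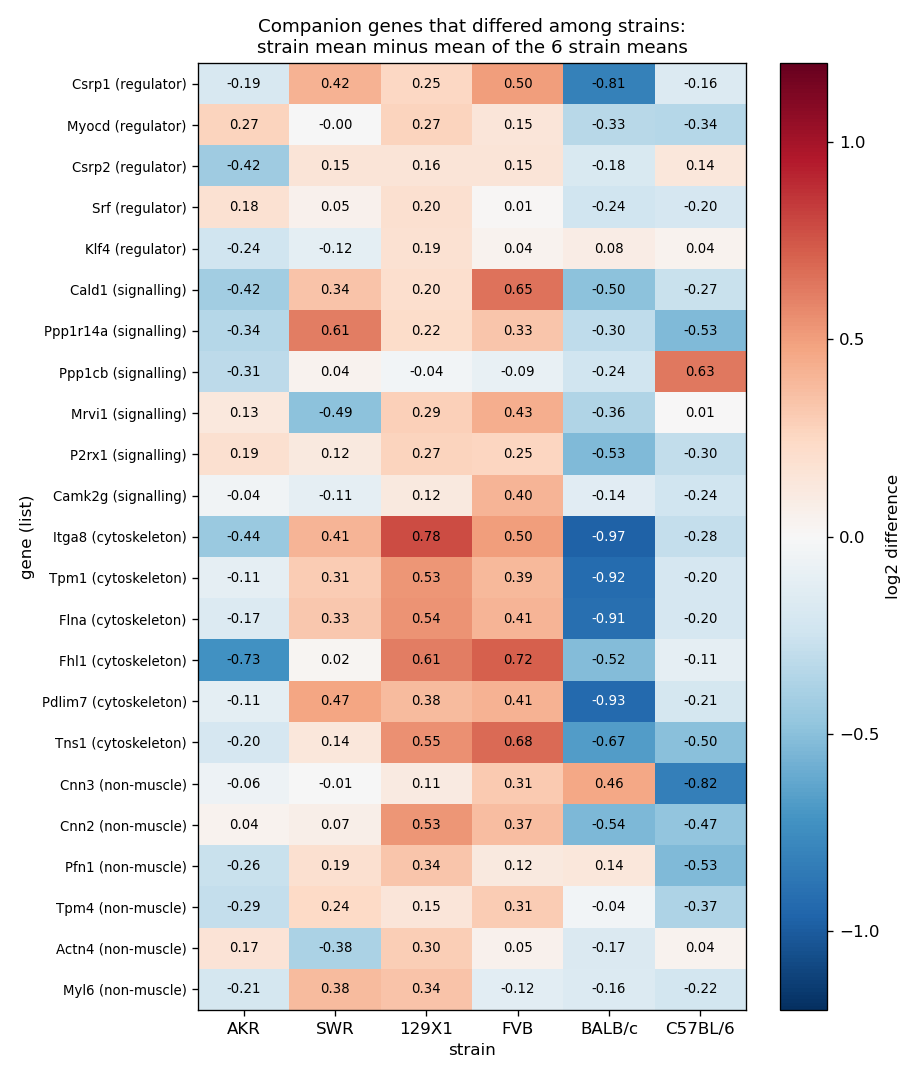
Strain mean minus the mean of the 6 strain means (log2) for the genes of the 4 companion lists with the widest ranges among those passing the F test. The cytoskeleton genes are lowest in BALB/c except Fhl1, which is lowest in AKR, and Cnn3 is highest in BALB/c.

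The genes outside the list whose signal was most like the mean of the 10 members were named by Pearson correlation over the 24 arrays, as a description. They were Flna (0.97), Csrp1 (0.97), Tpm1 (0.96), Tspan2 (0.93), Tns1 (0.92), Itga5 (0.91), Sfrp2 (0.91), Lgr5 (0.90), S100a4 (0.89), Lmcd1 (0.89), Col6a1 (0.88) and Wif1 (0.88). All 12 had their lowest mean in BALB/c, but they were chosen for likeness to members that are lowest there, so this is not a separate result. Sfrp2 and Wif1, which encode secreted inhibitors of Wnt signalling, were at 6.00 and 5.53 in BALB/c and at 7.55 and 7.26 in FVB. Lgr5, a receptor for R-spondins, was at 6.57 in BALB/c and at 7.47 to 8.22 in the other strains, and S100a4, a calcium-binding protein, at 6.22 in BALB/c and 8.20 in FVB.

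After the strain means were removed, the most alike were Csrp1 (0.89), Flna (0.88), Fhl1 (0.86), Tnnc2 (0.86), Tns1 (0.83), Tpm1 (0.81), Igfbp2 (0.79), Parva (0.78), Cald1 (0.78), Rgs5 (0.78), Acta1 (0.76) and Col1a2 (0.74). This list held 2 genes of skeletal muscle, Tnnc2 and Acta1, whose highest values were on 129X1 replicate 4 and SWR replicate 4, arrays with skeletal muscle signal.

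The CArG box was looked for in the RefSeq promoter windows (GRCm38.p6, 250 bases before to 50 after a start), since the members moved together. The table held windows for 7 of the 10 members (Mylk, Acta2, Cnn1, Des, Smtn, Myl9 and Tpm2). The element is a palindrome of 10 bases, so that both strands are covered by one search. A CArG box was found in 1 of the 7 windows, that of Myl9, and in 1.63% of 32851 windows of all genes. A CArG-like box, with 1 G or C in its A and T core, was found in 2 of the 7, Acta2 and Myl9, and in 8.5% of all. The matches are shown 5′ to 3′ on the strand of the gene with 10 bases on each side and the box in capitals, because they show the element in the 2 members at hand.
Myl9 CArG box, chr2:156775293-156775322, plus strand, 161 to 152 bases before the start: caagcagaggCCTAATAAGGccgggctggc
Myl9 CArG-like box, chr2:156775355-156775384, plus strand, 99 to 90 bases before the start: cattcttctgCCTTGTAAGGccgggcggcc
Acta2 CArG-like box, chr19:34255438-34255467, minus strand, 84 to 75 bases before the start: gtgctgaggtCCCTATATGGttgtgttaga
Acta2 CArG-like box, chr19:34255388-34255417, minus strand, 34 to 25 bases before the start: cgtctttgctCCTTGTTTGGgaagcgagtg

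A match is a string of letters in the reference strain and shows neither binding nor a strain difference. Both genes were lower in BALB/c, by 1.96-fold for Myl9 and 1.53-fold for Acta2, and so were Mylk, Cnn1, Smtn and Tpm2, in whose windows no match was found. The windows are short, and elements outside them were not searched. The start of a window need not be the outermost end of the gene. Both Acta2 boxes lie within the RefSeq span of that gene (chr19:34240336-34255585). The Mylk window (chr16:34784700-34784999) also lies within its gene (chr16:34745199-35002436).

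Probe sets of the same gene did not always show the same strains. The 3 of Mylk were all lower in BALB/c, but the middle one in brightness was as low in C57BL/6, where its arrays lay at 7.35, 7.42, 7.27 and 7.37 against 7.09 to 7.71 in BALB/c. It was 1.81-fold lower in C57BL/6 than in the other strains (log2 difference −0.86, SE 0.15, adjusted p = 0.00032), while the brightest was 1.29-fold lower (adjusted p = 0.018) and the faintest was not called there. Within arrays, the log2 value of the brightest exceeded that of the middle one by 1.36 to 1.81 in C57BL/6 and by 0.73 to 1.39 in all other arrays except 129X1 replicate 4 (2.08), so the ranges overlapped slightly. These ranges were looked at after the values were seen and were not tested.

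For Tpm2, both bright probe sets correlated at 0.92 over the 24 arrays, and the less bright of them was 2.26-fold lower in BALB/c (adjusted p = 4.6e-05). The fainter one stayed between 6.09 and 6.94 on all arrays and was called only in 129X1 (1.27-fold higher, adjusted p = 0.040). It did not pass the F test (adjusted p = 0.11), and the 129X1 call was lost under 15 of 35 alternatives. For Myh11, the faint probe set lay between 4.48 and 6.02 and did not pass the F test (adjusted p = 0.20), although its lowest mean was also in BALB/c. For Des, the fainter probe set lay between 6.01 and 7.02, did not pass the F test (adjusted p = 0.22) and correlated at −0.07 with the brighter one.

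The 2 member probe sets that were not tested were near the bottom of the scale. The one of Acta2 had intensities of 15.6 to 31.6 and the one of Tpm2, of the _x_at kind, of 5.03 to 44.7, so no strain difference can be read from them. The suffix of a probe set says how specific it was designed to be: _a_at recognises several transcripts of a gene, _s_at can recognise transcripts of several genes and _x_at may cross-hybridise. The Acta2 values above come from a probe set of the _s_at kind.

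**Figure D5:**
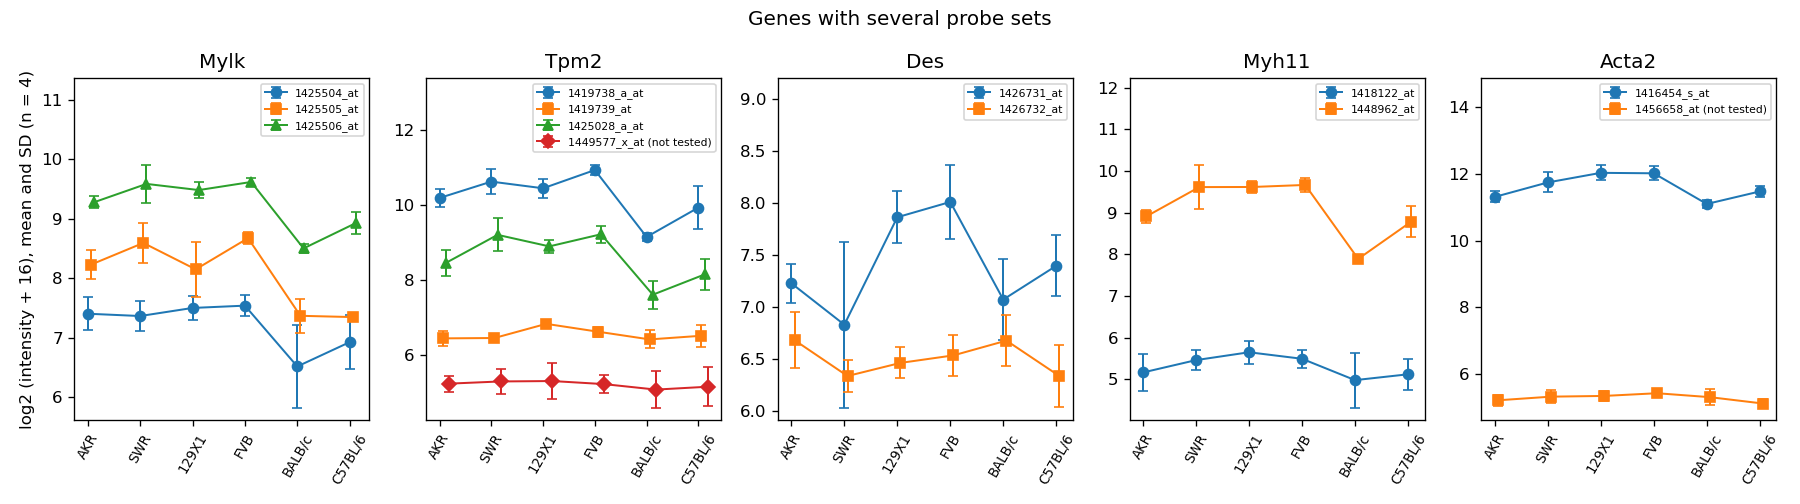
Strain means of log2 (intensity + 16) with SD (n = 4 arrays) for every probe set of the 5 members with more than 1. The bright probe sets of Tpm2 and Myh11 dip in BALB/c, the middle one of Mylk is as low in C57BL/6, and the faintest one of Mylk is also lower in BALB/c.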

How the data were processed

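Total RNA of ventral prostate was hybridised to 24 Affymetrix arrays of mouse genes, 4 per strain. The authors deposited 1 linear intensity per probe set and array; the submitters' processing notes name MAS5, with version and settings not given in the sources used here. The deposited intensity columns share a mean of 143.1 (to within 0.00088), while their 2% trimmed means ran from 91.4 to 105, so a factor per array brought the trimmed mean to 98.73. Then 16 was added and log2 taken. Probe sets above their array's 40th percentile on at least 4 arrays were tested (15775; 64 controls and 6851 faint ones left out). Genes come from the platform annotation, in which 20393 probe sets have 1 symbol.

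Linear models had a term for every strain (limma 3.58.1, R 4.3.3; 18 residual and 4.85 prior degrees of freedom), and were checked on simulated data. All 18 member probe sets are named. Of each companion list up to 6 genes with the widest ranges among those passing the F test are named, plus the 12 genes most correlated with the members, over arrays and within strains. The members and lists were chosen with earlier results of these data known. The 35 alternatives cover the pseudocount, scaling, filter, replicate number, marker scores and each array left out; 3 were chosen after seeing the data (all arrays numbered 4 left out, and the luminal and fibroblast scores as covariates). Samples are labelled biological replicates.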

Additional observations from a re-analysis of the deposited data

Results flagged for a closer look

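Of 108 groups of 4 arrays (18 member probe sets in 6 strains), 3 had an array far from the others by Dixon's criterion, which chance meets in about 1 in 20 groups. Actg2 in SWR replicate 4 was at 9.07 against 8.24 to 8.37 in the other SWR arrays. Actg2 in FVB replicate 4 was at 8.78 against 8.11 to 8.22. The faint, untested Acta2 probe set in 129X1 replicate 3 was at 5.56 against 5.25 to 5.27.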

How the results depend on the processing

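Each of 112 member results (16 probe sets, the F test and 6 strains) was recomputed under 35 alternatives. Of 3920 values, 3718 stayed on their side of the threshold, 131 lost a call and 71 gained one, and no called value changed sign. For the groups, the 13 of 16 probe sets of the F test ranged from 12 to 14. The 1 call in AKR was 0 with a pseudocount of 1, without rescaling, under quantile normalization, with no filter on low values, without the 3 arrays with a skeletal muscle score over 0.5, without all arrays numbered 4 and with the luminal or fibroblast score, and 2 with a pseudocount of 64 or the skeletal muscle score. The 8 calls in SWR were 5 without the 3 arrays or without all arrays numbered 4. The 5 calls in 129X1 were 3 with the skeletal muscle or the luminal score and 1 with the fibroblast score. The 11 in FVB were 1 with the fibroblast score, the 12 in BALB/c 5 with the luminal score, and the 3 in C57BL/6 5 without the 3 arrays or all arrays numbered 4. The 100 pairwise calls were 56 with the fibroblast score. The cause was not tested. With 1 array left out the counts ran from 0 to 2 in AKR, 3 to 9 in SWR, 3 to 8 in 129X1, 5 to 12 in FVB, 12 to 13 in BALB/c and 2 to 5 in C57BL/6, and pairwise calls from 90 to 104.

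Arrays of the same number correlated at a mean of 0.0053 over 60 pairs after strain means were removed, 5 of them over 0.1, so the numbers were not taken as pairs. With a replicate block the pairwise calls were 107, and the counts in SWR, 129X1 and FVB were 10, 7 and 12.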
